A study of Mus musculus with 8 samples.

Results

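Iron uptake, storage and export were followed through 9 genes, Tfrc, Steap3, Slc11a2, Fth1, Ftl1, Slc40a1, Aco1, Ireb2 and Fbxl5, which are 9 of the 24460 genes counted. They were chosen by name, with their normalized counts across the doses of RHPS4 in view, so their differences between doses are a description: where the fit over all genes called a member, the call rests on the values that chose it and lends no support. RHPS4 is a small molecule that binds G-quadruplexes, folded structures of guanine-rich nucleic acid. RNA-Seq was performed on wild type mouse embryonic fibroblasts (MEFs) cultured sub-confluently with 0 µM (3 libraries), 2 µM (3 libraries) or 10 µM (2 libraries) of the compound. The study's treatment notes give 16 or 24 h of exposure without saying which applies to these libraries. The age of the embryos and the strain were not given in the sources used here, nor was it stated whether replicates came from separate cultures, so the spread between libraries may be technical. All 3 groups shared the same culture medium, and the 0 µM group received no RHPS4.

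Cells take up iron when transferrin binds the transferrin receptor at the surface and is carried into endosomes, where the iron is reduced and moved to the cytosol. Ferritin stores what is not used, and ferroportin is the known exporter. Iron regulatory proteins bind a hairpin called the iron-responsive element (IRE), which protects the mRNA when it lies in the 3′ UTR and blocks translation when it lies in the 5′ UTR, and they do so most when iron is scarce.

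The annotated mRNAs of the 9 genes (GENCODE, GRCm38, the assembly called mm10) were searched on the sense strand for the letters of an IRE, taken as a C, 5 bases of a stem, the 6-base loop CAGTGN and 5 bases that pair with the stem, G-T pairs allowed. The sequences are shown because they set apart the mRNAs on which the 2 kinds of element lie. Capitals mark the bulged C and the loop. Tfrc had 4 matches, all in its 3′ UTR within 518 bases, at chr16:32631220-32631246, chr16:32631599-32631625, chr16:32631664-32631690 and chr16:32631711-32631737 on the plus strand, in that order.
Tfrc site at 32631220: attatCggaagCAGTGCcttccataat
Tfrc site at 32631599: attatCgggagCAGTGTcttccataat
Tfrc site at 32631664: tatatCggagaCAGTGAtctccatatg
Tfrc site at 32631711: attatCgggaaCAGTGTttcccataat

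Fth1, Ftl1 and Slc40a1 had a single match each, in the 5′ UTR, at chr19:9982733-9982759 on the plus strand, chr7:45459780-45459806 on the minus strand and chr1:45925466-45925492 on the minus strand.
Fth1 site: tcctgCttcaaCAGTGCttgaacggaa
Ftl1 site: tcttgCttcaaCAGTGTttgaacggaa
Slc40a1 site: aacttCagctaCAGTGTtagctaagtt

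The stem letters of the Fth1 and Ftl1 sites were identical. No match was found in Steap3, Slc11a2, Aco1, Ireb2 or Fbxl5, which says only that these letters were not in their annotated mRNAs. Among 21877 protein-coding genes, 0.142% had a match in a 5′ UTR and 0.590% in a 3′ UTR. A match is a description of the sequence and was not tested as a site of binding in these cells.

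The libraries held 10455965 to 26688121 counts, and 14296 genes were abundant enough to be tested. Replicates differed by more than sampling noise, and no libraries were merged. The mtDNA-encoded share of counts was 13.2% to 14.4% at 0 µM, 7.40% to 8.26% at 2 µM and 5.33% to 6.32% at 10 µM. Of 10 fibroblast markers, 9 were above 1 CPM (a gene's counts scaled to a library total common to all libraries) in every library, all but Lum, and their summed level was 12754 to 13261 CPM at 0 µM, 11426 to 11772 CPM at 2 µM and 11123 to 11705 CPM at 10 µM. Of 5 erythroid markers, Hba-a1 and Hbb-bs were at 0 in all 8 libraries, and the list summed to at most 2.16 CPM. The 5 macrophage and leukocyte markers summed to 6.23 to 10.3 CPM at 0 µM, 7.49 to 9.05 CPM at 2 µM and 7.63 to 10.4 CPM at 10 µM. Markers of endothelial, epithelial, liver, skeletal muscle and fat cells summed to at most 5.04 CPM per list. In such bulk samples, fewer cells of a type and less RNA per cell cannot be told apart.

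A gene was called where edgeR's quasi-likelihood test gave an adjusted p under 0.01 over all genes tested and the fold was over 1.5. Of the 9 genes, 8 passed the filter on low counts, all but Slc40a1. At 2 µM against 0 µM 0 of the 8 were called, against 0.497% of all genes (0.119% higher and 0.378% lower), and 0 were called by DESeq2. An unadjusted p under 0.05 in edgeR's test was reached by 2 of the 8 and by 3046 of the 14296 genes tested. At 10 µM against 0 µM 1 was called (3.09% of all genes, 1.95% higher and 1.14% lower), and at 10 µM against 2 µM 1 was called (5.51% of all genes, 3.92% higher and 1.59% lower), in both cases Tfrc, with the lower level at 10 µM. These comparisons are the ones that chose the genes, and they share libraries with each other.

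Uptake was led by Tfrc (chr16:32608920-32632794, plus strand), the transferrin receptor. Tfrc stood at 336, 291 and 312 CPM in the 0 µM libraries. It stood at 422, 412 and 418 CPM in the 2 µM libraries and at 157 and 166 CPM in the 10 µM libraries. The doses did not overlap in any pair, with every 2 µM library above and every 10 µM library below all of those at 0 µM.

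The mean level of Tfrc was 313 ± 22.5 CPM (SD, n = 3) at 0 µM, 417 ± 5.06 CPM (SD, n = 3) at 2 µM and 162 ± 7.02 CPM (SD, n = 2) at 10 µM. On the log2 scale Tfrc differed by 0.41 (SE 0.0713) at 2 µM against 0 µM, which is 1.33-fold and under the fold of 1.5. At 10 µM it was -0.96 (SE 0.0825) against 0 µM and -1.37 (SE 0.0838) against 2 µM, or 0.515 and 0.387 of the level there. When the scaling factors were taken from nuclear genes alone, without the mtDNA-encoded counts that also moved with dose, the 3 values were 0.43, -0.96 and -1.38.

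Steap3 (chr1:120190757-120272705, minus strand) encodes the endosomal reductase that converts the iron released from transferrin. Its level was 15.7, 16.9 and 18.9 CPM at 0 µM, 14.8, 17.3 and 17.5 CPM at 2 µM, and 24.5 and 21.4 CPM at 10 µM. The 10 µM libraries lay above all others, while 0 µM and 2 µM overlapped. The log2 fold change of Steap3 was -0.06 (SE 0.108) at 2 µM and 0.41 (SE 0.115) at 10 µM against 0 µM, and 0.47 (SE 0.117) at 10 µM against 2 µM. It was thus higher at 10 µM, where Tfrc was lower.

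Slc11a2 (chr15:100387898-100425072, minus strand) encodes the divalent metal transporter that moves reduced iron out of the endosome. It stood at 46.4, 50.6 and 49.3 CPM at 0 µM, at 50.4, 58.5 and 49.99 CPM at 2 µM, and at 44.0 and 38.1 CPM at 10 µM. Both 10 µM libraries were the lowest of the 8, and 0 µM and 2 µM overlapped. The log2 fold change of Slc11a2 was 0.11 (SE 0.0879) at 2 µM and -0.25 (SE 0.0993) at 10 µM against 0 µM, and -0.37 (SE 0.0999) at 10 µM against 2 µM. Its mRNA forms, some of which are known to end in a 3′ UTR with an IRE that the letters searched did not match, were counted together. Without the first 10 µM library the difference from 0 µM was -0.39.

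Storage was measured by the subunits of ferritin. Fth1 (chr19:9980598-9985098, plus strand) encodes the heavy subunit, which oxidizes iron for storage. It stood at 229, 307 and 369 CPM at 0 µM, at 221, 228 and 280 CPM at 2 µM, and at 265 and 211 CPM at 10 µM. The 3 doses overlapped, and the untreated libraries alone spanned nearly the whole range.

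The mean of Fth1 was 302 ± 70.2 CPM (SD, n = 3), 243 ± 32.2 CPM (SD, n = 3) and 238 ± 38.4 CPM (SD, n = 2) at 0, 2 and 10 µM. Its log2 fold change was -0.31 (SE 0.157) at 2 µM and -0.34 (SE 0.177) at 10 µM against 0 µM, and -0.03 (SE 0.176) between the treated doses. Single libraries moved these values: without the first or the third 0 µM library they were -0.47 or -0.14 at 2 µM and -0.53 or -0.17 at 10 µM, and without the first or the second 10 µM library the latter was -0.55 or -0.22. Within each dose, Fth1 and Steap3 ordered the libraries as their total counts did. That was so for 6.58% of the genes tested, and the part of library size in these levels was not tested.

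Ftl1 (chr7:45457944-45459884, minus strand) encodes the light subunit of ferritin, which helps the iron core to form. It stood at 491, 460 and 461 CPM at 0 µM, at 521, 507 and 479 CPM at 2 µM, and at 546 and 500 CPM at 10 µM. The 10 µM libraries lay just above the 0 µM libraries, and 2 µM overlapped with both. The log2 fold change of Ftl1 was 0.09 (SE 0.0707) at 2 µM and 0.15 (SE 0.0787) at 10 µM against 0 µM, and 0.06 (SE 0.0789) between the treated doses. Without the first 10 µM library the value at 10 µM against 0 µM was 0.06. Of the 75-base stretches in Ftl1 mRNAs, 84.8% also occurred in the transcripts of 8 other annotated genes, led by Ftl1-ps1, so how reads were assigned among these copies makes its level uncertain. For Fth1 that share was 2.32%, all with the pseudogene Gm6977, and for the other 7 genes it was 0.

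Export was represented by Slc40a1 (chr1:45908068-45926523, minus strand), which encodes ferroportin. The untreated libraries held 6, 8 and 9 counts of it, those at 2 µM held 2, 1 and 7, and those at 10 µM held 12 and 6, or 0.0815 to 0.733 CPM over all libraries. With no more than 12 counts in a library, Slc40a1 was not tested and no fold is given. A difference was not detectable at this depth. Hamp, which encodes hepcidin, the hormone that removes ferroportin, had 0 to 2 counts in a library.

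Regulation was followed through the iron regulatory proteins and the ligase subunit that controls them. Aco1 (chr4:40143081-40198338, plus strand) encodes iron regulatory protein 1, which acts as cytosolic aconitase when it holds an iron-sulfur cluster. It stood at 108, 105 and 108 CPM at 0 µM, at 119, 121 and 115 CPM at 2 µM, and at 96.1 and 95.7 CPM at 10 µM. As with Tfrc, every 2 µM library was above and every 10 µM library below those at 0 µM, over a much narrower range.

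The log2 fold change of Aco1 was 0.15 (SE 0.0614) at 2 µM and -0.15 (SE 0.0690) at 10 µM against 0 µM, and -0.30 (SE 0.0694) at 10 µM against 2 µM. With total counts as the only scaling, the value at 10 µM against 0 µM turned to 0.06, so its direction there held only under the other scalings.

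Ireb2 (chr9:54863789-54912530, plus strand) encodes iron regulatory protein 2, which is degraded when iron is plentiful. It stood at 154, 202 and 211 CPM at 0 µM, at 137, 163 and 209 CPM at 2 µM, and at 160 and 172 CPM at 10 µM. All 3 doses overlapped. Its log2 fold change was -0.15 (SE 0.148) at 2 µM and -0.19 (SE 0.166) at 10 µM against 0 µM, the latter 0.03 with total counts as the only scaling, and -0.03 (SE 0.166) between the treated doses. Leaving out a library gave -0.33 to -0.02 at 2 µM and -0.34 to -0.10 at 10 µM against 0 µM, the ends being without the third and the first 2 µM library and without the first and the third 0 µM library.

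Fbxl5 (chr5:43744615-43821638, minus strand) encodes the iron-binding subunit of the ubiquitin ligase that marks iron regulatory protein 2 for degradation. It stood at 83.5, 84.6 and 85.0 CPM at 0 µM, at 86.9, 90.4 and 79.7 CPM at 2 µM, and at 96.6 and 100.0 CPM at 10 µM. The 10 µM libraries were above all others, and 2 µM overlapped with 0 µM. The log2 fold change of Fbxl5 was 0.02 (SE 0.0691) at 2 µM and 0.22 (SE 0.0764) at 10 µM against 0 µM, and 0.20 (SE 0.0767) at 10 µM against 2 µM, or 0.13 without the third 2 µM library.

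Scaling by total counts alone moved the median of all genes at 10 µM against 0 µM by 0.21. Under it the log2 fold change there was -0.74 for Tfrc, 0.62 for Steap3, -0.04 for Slc11a2, -0.13 for Fth1, 0.37 for Ftl1 and 0.44 for Fbxl5, each of which kept its sign.

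**Figure D1:**
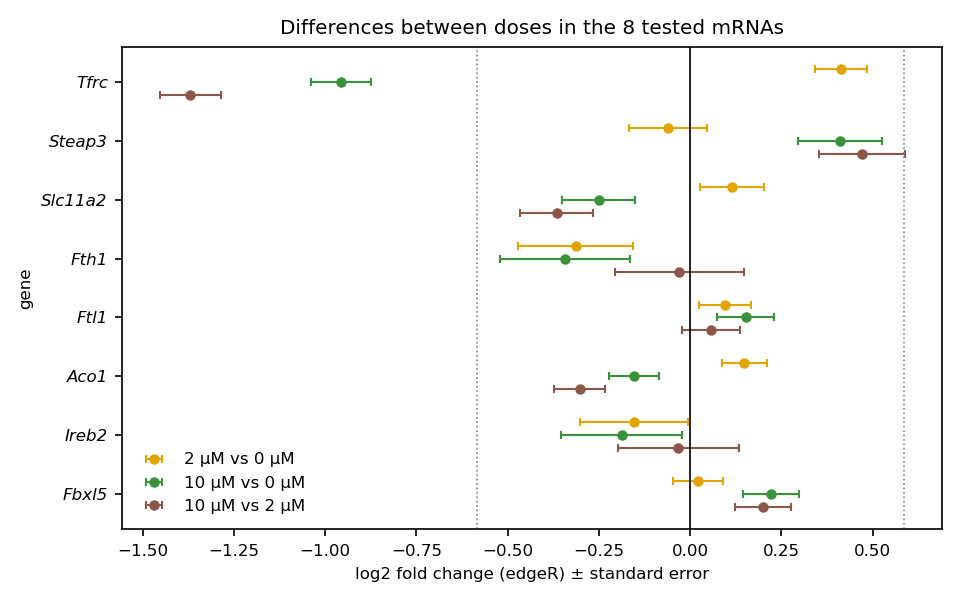
Log2 fold change of the 8 tested mRNAs (x axis, edgeR) with bars of 1 SE, by gene (y axis) and comparison (colour). Dotted lines mark the fold of 1.5, and only Tfrc at 10 µM, at -0.96 and -1.37, lies beyond them.

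At 2 µM against 0 µM, 2 of the 8 (25.0%) had libraries that did not overlap, both higher at 2 µM (Tfrc and Aco1), where 12.7% of all genes were higher without overlap and 12.9% lower. At 10 µM against 0 µM, 3 were higher (Steap3, Ftl1 and Fbxl5) and 3 lower (Tfrc, Slc11a2 and Aco1), 37.5% each, where 22.9% of all genes were higher and 20.0% lower. At 10 µM against 2 µM, Steap3 and Fbxl5 were higher and Tfrc, Slc11a2 and Aco1 lower, where 27.0% of all genes were higher and 24.9% lower. The median log2 fold change of the 8 was 0.06, -0.17 and -0.03 in these 3 comparisons, against -0.01, 0.02 and 0.03 over all genes tested.

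Per kilobase of annotated exon, the order of the 9 mRNAs at 0 µM was Ftl1, Fth1, Tfrc, Aco1, Ireb2, Fbxl5, Slc11a2, Steap3 and Slc40a1. The level of Ftl1 was 351 ± 13.5 CPM per kb (SD, n = 3), that of Fth1 86.9 ± 20.2, that of Tfrc 50.7 ± 3.64, and that of Slc40a1 0.0510 ± 0.0159. Aco1 at 23.7 ± 0.385 and Ireb2 at 19.9 ± 3.24 lay close together, with no overlap at 0 µM by this length. Fbxl5 (8.66 ± 0.0820) and Slc11a2 (7.68 ± 0.342) were also close neighbours, and Steap3 (3.00 ± 0.280) was well below them.

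The order was the same at 2 µM and 10 µM, but the distance between Fth1 and Tfrc was not. At 2 µM Fth1 stood at 70.0 ± 9.29 CPM per kb (SD, n = 3) and Tfrc at 67.5 ± 0.818 (SD, n = 3), and the libraries overlapped, as did those of Fbxl5 and Slc11a2 at that dose. At 10 µM Fth1 stood at 68.6 ± 11.1 (SD, n = 2) and Tfrc at 26.1 ± 1.13 (SD, n = 2). With the mean length of the annotated transcripts, or the length of the longest protein-coding one, 7 of the 9 genes kept their rank at 0 µM. With the mean length, Slc11a2 (36.3 ± 1.62) stood above Fbxl5 (34.0 ± 0.322) there. With the longest transcript, Ireb2 (32.7 ± 5.33) stood above Aco1 (27.8 ± 0.451), with overlap (CPM per kb, SD, n = 3). The overlaps at 2 µM were not kept. With the mean length Fth1 stood there at 269 ± 35.8 and Tfrc at 233 ± 2.82 CPM per kb (SD, n = 3). With the longest transcript they stood at 163 ± 21.6 and 85.3 ± 1.03 (SD, n = 3). With neither length did the libraries of these genes overlap at 2 µM, nor those of Fbxl5 and Slc11a2.

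Ratios within a library do not depend on how libraries are scaled. The ratio of Tfrc counts to Fth1 counts, between the receptor and the heavy ferritin subunit, was 0.56, -0.08 and -0.24 on the log2 scale at 0 µM. The 2 µM libraries had ratios of 0.93, 0.85 and 0.58, and the 10 µM libraries had -0.76 and -0.34. The doses did not overlap, although the first 0 µM library came within reach of the lowest 2 µM library.

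The mean log2 ratio of Tfrc to Fth1 was 0.08 ± 0.42 (SD, n = 3), 0.79 ± 0.18 (SD, n = 3) and -0.55 ± 0.30 (SD, n = 2). That corresponded to 1.06, 1.73 and 0.683 Tfrc counts per Fth1 count, and 1.63 times as many at 2 µM and 0.645 times as many at 10 µM as at 0 µM. The log2 ratio of Fth1 to Ftl1, the heavy to the light subunit, averaged -0.67 ± 0.40 (SD, n = 3), -1.06 ± 0.25 (SD, n = 3) and -1.14 ± 0.14 (SD, n = 2), and the doses overlapped. The log2 ratio of Ireb2 to Aco1, the 2 iron regulatory proteins, averaged 0.81 ± 0.26 (SD, n = 3), 0.50 ± 0.33 (SD, n = 3) and 0.79 ± 0.08 (SD, n = 2), also with overlap.

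**Figure D2:**
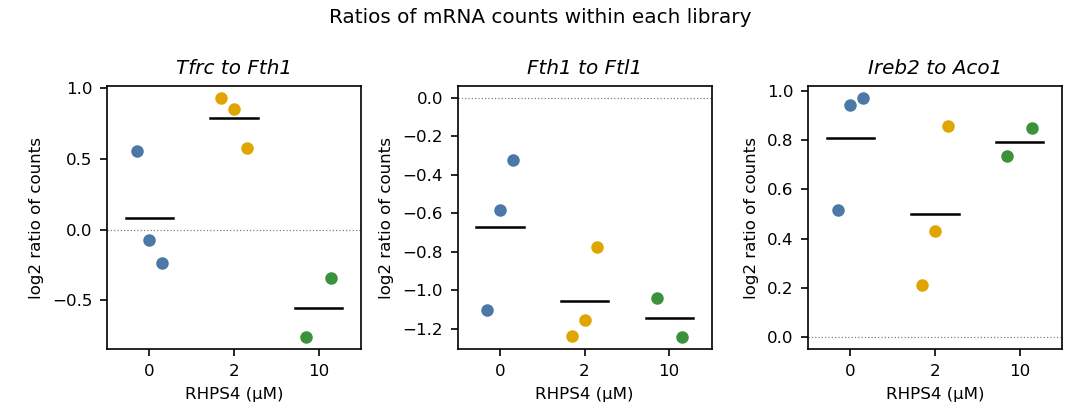
Log2 ratio of counts within each library (y axis) against the dose of RHPS4 in µM (x axis) for Tfrc to Fth1, Fth1 to Ftl1 and Ireb2 to Aco1. Points are libraries and bars are means, and the doses are apart in Tfrc to Fth1 (means 0.08, 0.79 and -0.55) and overlap in the other ratios.

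Set beside the sequences, the mRNA with 4 matches to the IRE in its 3′ UTR, Tfrc, was the one at -0.96 at 10 µM against 0 µM. The mRNAs with a match in the 5′ UTR that could be tested, Fth1 and Ftl1, stood at -0.34 and 0.15. Slc11a2, of which a form is known to carry an IRE in its 3′ UTR, stood at -0.25. Over the 8 libraries the log2 levels of Aco1 and Slc11a2 had a Pearson's r of 0.96 and 0.81 with Tfrc, and those of Steap3 and Fbxl5 of -0.88 and -0.80. Fth1 and Ireb2, the genes with the widest spread within a dose among the 8 tested, had an r of 0.79 with each other. These correlations are descriptions over 8 points that share the 3 doses and the scaling.

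The genes with the pattern most like that of Tfrc over the 8 libraries were Cdc6 (r = 0.997), Msh6 (0.994), Gsr (0.994), Lbr (0.991) and Hn1l (0.990). A total of 193 of the other 14295 genes had an r of at least 0.95 with Tfrc, so likeness at that level was not limited to the 5 named. Those most like Steap3, the gene with the next largest difference at 10 µM against 0 µM, were Lekr1 (0.985), G630090E17Rik (0.981), Zfp781 (0.977), Dnase1l1 (0.973) and Tatdn3 (0.973), and 29 genes reached 0.95. By rank correlation, 0 of these 5 stayed among the 5 nearest for either gene.

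Other genes of iron metabolism were taken from a list of 81 genes in 8 groups, of which 79 were counted and 72 tested. Flvcr1 and Flvcr2 were not analysed here. In edgeR's quasi-likelihood test 0 of the 72 were called at 2 µM against 0 µM, against 0.497% of all genes, and 0 were called by DESeq2. An unadjusted p under 0.05 in edgeR's test was reached by 14 of the 72 and by 3046 of all 14296 genes tested. One gene of haem synthesis, Cpox, was called at 10 µM, against 0 µM and against 2 µM, where 3.09% and 5.51% of all genes were called.

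Cpox encodes coproporphyrinogen oxidase, an enzyme of haem synthesis in the mitochondrial intermembrane space. It stood at 27.2, 23.5 and 22.8 CPM at 0 µM, at 28.6, 27.6 and 23.2 CPM at 2 µM, and at 43.6 and 48.3 CPM at 10 µM. Both 10 µM libraries were above all 6 others. Cpox rose at 10 µM by a log2 fold change of 0.92 (SE 0.112, adjusted p = 0.000405) against 0 µM and of 0.80 (SE 0.113, adjusted p = 0.000728) against 2 µM in edgeR's quasi-likelihood test. Without the second 10 µM library the latter was 0.69 with an adjusted p of 0.0120 and was no longer called.

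Among 8 tested genes of haem synthesis, 5 had all 10 µM libraries above those at 0 µM and 1 below (22.9% and 20.0% over all genes), and the median log2 fold change was 0.23 against 0.02 over all genes. In the mitochondrial group of 20 genes, for iron import and iron-sulfur cluster assembly, 0 were called (3.09% over all genes), 8 were higher without overlap and 2 lower, and the median was 0.11. Its largest difference was that of Hscb, a co-chaperone that hands on new clusters, at 0.71 (SE 0.218, edgeR adjusted p = 0.0533). The 9 genes of cytosolic cluster assembly had a median of -0.002, with 2 higher and 0 lower without overlap (22.9% and 20.0% over all genes), led by Narfl at 0.31 (SE 0.100, edgeR adjusted p = 0.0640).

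Of 10 tested genes of uptake and endosomal release other than the members, 3 were higher and 3 lower without overlap at 10 µM against 0 µM, with 22.9% and 20.0% over all genes. The largest difference was that of Exoc6, a subunit of the exocyst that tethers vesicles, at 0.57 (SE 0.127, edgeR adjusted p = 0.0139), which missed the threshold. In the group of iron chaperones and ferritin turnover (6 tested), Pcbp1, which delivers iron to ferritin, had the largest difference at -0.52 (SE 0.270, edgeR adjusted p = 0.223), with overlapping libraries. In the group of export and systemic control (6 tested), it was Hfe, a partner of the transferrin receptor, at 0.68 (SE 0.292, edgeR adjusted p = 0.152), at 0.793 to 2.26 CPM over the 8 libraries.

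The 7 tested genes of haem transport and breakdown had a median of 0.004 at 10 µM against 0 µM, and none had separate libraries. Over all genes, 22.9% were higher and 20.0% lower without overlap in that comparison. Blvrb, a biliverdin reductase, lay farthest from 0 at 0.25 (SE 0.167, edgeR adjusted p = 0.356). Of the 6 tested partners of FBXL5 and other mRNAs known to carry an IRE, Cdc14a, a phosphatase, lay farthest at 0.36 (SE 0.137, edgeR adjusted p = 0.106).

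Besides Cpox, 3 listed genes had an adjusted p under 0.01 in a comparison but stayed under the fold of 1.5, and they were picked out after their values were seen. Cp encodes ceruloplasmin, a ferroxidase that works with ferroportin. It stood at 149, 142 and 149 CPM at 0 µM, at 106, 104 and 111 CPM at 2 µM, and at 113 and 114 CPM at 10 µM. Both treated doses lay below 0 µM. Cp differed from 0 µM by -0.45 (SE 0.0633, edgeR adjusted p = 0.00376) at 2 µM and by -0.37 (SE 0.0711, edgeR adjusted p = 0.00659) at 10 µM. The edgeR adjusted p of Cp stayed under 0.01 in 2 of the 8 fits that each left out 1 library, at 2 µM and at 10 µM alike, and with total counts as the only scaling the value at 10 µM was -0.15 (edgeR adjusted p = 0.106). Heph and Hephl1, the other ferroxidases in the group of export and systemic control, were less abundant than Cp. Over the 8 libraries Heph stood at 3.03 to 6.26 CPM and Hephl1 at 0.408 to 1.73 CPM.

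Slc39a14 encodes a transporter that takes up iron not bound to transferrin. It stood at 97.4, 95.1 and 94.8 CPM at 0 µM, at 89.8, 101 and 98.3 CPM at 2 µM, and at 68.6 and 69.3 CPM at 10 µM. The 10 µM libraries were the lowest, and 0 µM and 2 µM overlapped. Slc39a14 differed by -0.47 (SE 0.0768, edgeR adjusted p = 0.00264) at 10 µM against 0 µM and by -0.48 (SE 0.0771, edgeR adjusted p = 0.00144) against 2 µM. With 1 library left out, the edgeR adjusted p stayed under 0.01 in 5 and in 6 of 8 fits, and with total counts as the only scaling the former value was -0.26 (edgeR adjusted p = 0.0270).

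Abcb10, a transporter of the inner mitochondrial membrane, passed the adjusted p at 10 µM against 2 µM. It stood at 73.1, 65.3 and 68.1 CPM at 0 µM, at 83.4, 84.2 and 87.1 CPM at 2 µM, and at 55.5 and 58.1 CPM at 10 µM. The doses did not overlap, with 2 µM highest and 10 µM lowest, the order seen for Tfrc and Aco1. Its log2 fold change was 0.31 (SE 0.0689) at 2 µM and -0.28 (SE 0.0782) at 10 µM against 0 µM, with an edgeR adjusted p of 0.0362 and 0.0383, and -0.58 (SE 0.0786, edgeR adjusted p = 0.000565) at 10 µM against 2 µM.

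Over the 72 genes, 15 were higher and 4 lower without overlap at 2 µM against 0 µM (20.8% and 5.56%, with 12.7% and 12.9% over all genes). At 10 µM against 0 µM 22 genes were higher and 8 lower (30.6% and 11.1%, with 22.9% and 20.0% over all genes). At 10 µM against 2 µM the genes numbered 23 and 15 (31.9% and 20.8%, with 27.0% and 24.9% over all genes). The median log2 fold change of the 72 was 0.06, 0.04 and -0.01, within 0.1 of that over all genes in each comparison.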

How the data were processed

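Total RNA was depleted of nuclear rRNA, and strand-specific libraries were sequenced as paired reads. The authors trimmed the reads with Trim Galore and cutadapt, aligned them to mm10 with STAR 2.5.2a and counted uniquely mapped fragments with featureCounts. The deposited values are these raw counts per gene, with no normalization. The annotation and strand setting of the counting were not given in the sources used here.

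One model with dose as its factor was fitted to the 8 libraries by edgeR 4.0.16 in R 4.3.3. Low counts were removed by filterByExpr, libraries were scaled by TMM, genes were tested by the quasi-likelihood F-test, and p-values were adjusted by Benjamini and Hochberg. CPM values used TMM-scaled totals. The SE was the log2 fold change divided by the square root of F. Log2 levels for correlations used a prior count of 2, and ratios added 0.5 to each count. Tested on simulated counts for 10 µM against 0 µM, edgeR called 177 of 200 genes changed 2-fold and 1 of 13998 others. The simulation gave every gene the same spread and changed only well-counted genes, so these rates need not hold for the real libraries.

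Positions, lengths and mRNA sequences came from GENCODE (GRCm38), and promoters (GRCm38.p6) from RefSeq. The 75-base stretches match the read length. The genes and lists were chosen with earlier results of these data known. Genes named are the 9 members, listed genes that were called, the largest difference at 10 µM against 0 µM in each listed group, the 5 genes most like Tfrc and Steap3, and genes that share stretches with a member. Named outside this rule, after their values were seen, are Cp, Slc39a14 and Abcb10, with Heph, Hephl1 and Hamp. Alternatives were other scalings and filters, DESeq2 1.42.0, the compared groups alone, other thresholds, a replicate block and leaving out each library.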

Additional observations from a re-analysis of the deposited data

How the results depend on the processing

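Over 16 alternative fits, which reuse the values that chose the gene and are no independent support, the log2 fold change of Tfrc at 10 µM was -1.03 to -0.74 against 0 µM and -1.45 to -1.23 against 2 µM. Of 384 alternative log2 fold changes of the members, 348 moved by less than 1 SD between replicates. With total counts as the only scaling, 2 members (Steap3 joined Tfrc) were called at 10 µM against 0 µM and 2 against 2 µM. Against 0 µM, 6 listed genes were called. Over all 14296 genes tested, that scaling called 914 against 0 µM and 1007 against 2 µM. At an adjusted p under 0.05 with no minimum fold, 1, 2 and 4 members and 2, 9 and 12 listed genes passed. The order is 2 µM against 0 µM, 10 µM against 0 µM and 10 µM against 2 µM. Over all 14296 genes tested, 595, 1991 and 3346 passed. An adjusted p under 0.01 with no minimum fold gave 2 members at 10 µM against 2 µM, and 1, 3 and 3 listed genes. In the same order, 107, 747 and 1539 of all genes tested passed. RLE factors, TMM over nuclear genes, no filter and DESeq2 each gave 2 listed genes at 10 µM against 2 µM, Cpox and Abcb10. Over all genes these fits called 798, 786, 894 and 814. Left out one at a time, the libraries gave 1 to 2 listed genes at 10 µM against 0 µM (Exoc6 joined without the first 0 µM library) and 1 to 2 at 10 µM against 2 µM. There, Abcb10 joined Cpox without the first or second 0 µM library, the first or second 2 µM library or the first 10 µM library, and took its place without the second 10 µM library. With one 10 µM library left out, the other is assumed to vary like the other groups. The causes of these moves were not tested.

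Replicate numbers were shared by the groups, but libraries of the same number did not deviate together in every pair (correlations 0.199, 0.0845 and 0.161 between 0 µM and 2 µM, and -0.145 to -0.0212 with 10 µM). With the replicate block, 54, 322 and 735 genes were called in place of 71, 442 and 788, Tfrc was -0.95 and -1.37 at 10 µM, Cpox was 0.84 and 0.73, and Fth1 was -0.19 at 10 µM against 0 µM. The log2 ratio of Tfrc to Fth1 differed from 0 µM by 0.55 to 0.95 at 2 µM and by -0.84 to -0.39 at 10 µM when any library was left out. The 10 µM group rests on 2 libraries, and precision at low counts covers counting error only.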

Other observations

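RHPS4 binds G-quadruplexes, so the promoters of the members were searched for 4 runs of GGG with 1 to 7 bases between runs, on either strand. RefSeq windows of 300 bases around a gene start (GRCm38.p6) were matched for 6 of the 9 genes, in 11 windows. The pattern was found in 2 of the 11 windows (18.2%), that of Ftl1 and 1 of those of Tfrc, and in 18.5% of 32851 windows over all genes. By gene, it was found in 2 of 6 members (33.3%) and in 20.4% of 27025 genes. The members' windows held a median of 63.7% G and C, against 52.7% over all windows. Steap3, Aco1, Ireb2 and Fth1 had no match in their windows, which says only that these letters were not there.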
